A study of Mus musculus with 2 samples.

Results

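Keratins are the intermediate filament proteins of epithelial cells, and their genes were examined here in RNA from sorted stromal cells of the mouse mammary gland. Members were all gene symbols of the deposited comparison table made of Krt and a number, with the brighter row kept where a symbol stood on more than 1. The rule found 51 keratin symbols among 24646 symbols, on 52 rows, since Krt18 alone had a second row. Krt72-ps, annotated as a pseudogene, and Krt222, a keratin-like gene, are among the 51, whereas keratin-associated proteins (Krtap genes) are not.

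The study measured 2 samples on Affymetrix arrays to ask which stromal factors depend on Gli2, a factor that relays hedgehog signals to genes. The ablated sample came from a Gli2∆S mouse, in which Gli2 was removed in the stroma, and the control sample from a Gli2WT littermate. Both glands were taken at 10 weeks of age. In both, the sorted cells were those that Fsp1-Cre, a recombinase driven by the Fsp1 (S100a4) promoter, had turned green through the Rosa26mTmG reporter, so the controls carry the Cre and the reporter too. Fsp1 is a fibroblast gene that some leukocytes also express, which limits what the sort can be taken to hold. With 1 sample per group there is no replicate check, no test across samples and no p-value for any difference below. Differences are given on the log2 scale as ablated minus control, and a difference of 1 is 2-fold.

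Keratins assemble in pairs of a type I (acidic) and a type II (basic) chain, and each epithelium is known by its pair. In the mammary duct, Krt8 pairs with Krt18 in luminal cells, along with Krt19 and Krt7, while Krt5 and Krt14 mark the basal, myoepithelial layer with Krt17 and Krt15. Fibroblasts and leukocytes rely on vimentin instead and are not known as a main source of keratins. In the mouse, type I genes are clustered on chromosome 11 and type II genes on chromosome 15, and Krt18 is the type I gene that lies with the type II cluster. By the RefSeq gene table, 27 of the 51 symbols lay on chromosome 11 and 23 on chromosome 15, and Krt72-ps was not matched.

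The promoters of Krt8 and Krt18 are shown because this pair, which lies close together on chromosome 15 and is read in opposite directions, gave the highest keratin signals. Each sequence runs 5′ to 3′ on the gene's own strand, from 250 bases before to 50 bases after the annotated start (RefSeq, GRCm38.p6), at chr15:102004293-102004592 on the minus strand for Krt8 and chr15:102027966-102028265 on the plus strand for Krt18. Capitals mark matches to TATAAA on either strand, of which the run in Krt8 is an overlapping pair, 1 on each strand.
Krt8: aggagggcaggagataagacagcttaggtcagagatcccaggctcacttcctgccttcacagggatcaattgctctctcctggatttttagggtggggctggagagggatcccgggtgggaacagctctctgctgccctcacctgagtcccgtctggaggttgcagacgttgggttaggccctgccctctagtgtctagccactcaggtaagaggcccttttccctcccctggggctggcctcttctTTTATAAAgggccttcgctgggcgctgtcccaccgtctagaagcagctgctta
Krt18: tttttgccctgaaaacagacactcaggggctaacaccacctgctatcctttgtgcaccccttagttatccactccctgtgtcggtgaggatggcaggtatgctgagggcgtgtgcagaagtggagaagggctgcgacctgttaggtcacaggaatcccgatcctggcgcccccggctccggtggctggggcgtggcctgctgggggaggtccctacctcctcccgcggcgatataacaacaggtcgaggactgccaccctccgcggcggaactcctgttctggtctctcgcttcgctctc

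Of the 51 keratins, 34 had a promoter window in the RefSeq table, on 35 windows. TATAAA, the core letters of the TATA box, was found on either strand in 18 of these 35 windows, against 13.6% of all 32851 windows. The GC box letters GGGCGG were found in 2 of the 35 (Krt7 and Krt75), against 35.7% of all windows. The sequence GACCACCCA, known as a binding site of Gli proteins, was found in 0 of the 35, against 0.253% of all windows. These are matches of letters and say nothing of what binds there.

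The array is described here in brief. Log2 signals ran from 1.73 to 13.59 in the ablated sample and from 1.94 to 13.6 in the control sample, with a median of 6.13 in each. The table gives no detection calls, so 2 yardsticks were used for low signals. A symbol passed the signal filter with at least 6.445 in either sample, a value that 12323 of the 24646 symbols reached. The 1429 olfactory and vomeronasal receptor genes, which are not known to be used in the mammary gland, had a median signal of 4.50 and a 95th percentile of 6.66. Signals of different rows depend on their own probes, so an order of signals describes the array and is not an order of transcript amounts.

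The targeted gene, Gli2, had 5.32 in the ablated sample and 5.94 in the control sample in the comparison table, a difference of -0.62. In the submitters' other value table the same row read 5.72 in the ablated sample and 5.94 in the control sample, a difference of -0.22. Of 41345 rows, Gli2 and Bmp7 were the 2 that differed between the tables by more than 0.006, and 0 of the 52 keratin rows did. Which Gli2 value is right cannot be told from the files. All Gli2 signals lie below the signal filter, and the sources used do not say where its probes lie relative to the deleted part, so Gli2 is only a weak check of the labels on which every direction below rests.

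Luminal simple keratins were the bright keratins of both samples, and their signals differed by at most 0.21 between them. Krt8, the type II chain of the luminal pair, had a log2 signal of 10.18 in the ablated sample and 10.06 in the control sample. That is a difference of 0.12, at the 96.8th percentile of mean signal among all symbols. Its partner Krt18 had 9.72 in the ablated sample and 9.74 in the control sample, a difference of -0.02 at the 95.1st percentile. Both chains of this pair thus stood among the brightest rows of the array in each sample, and only 1 of the 1429 receptor genes had a higher mean signal than Krt8.

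Krt19, the smallest type I keratin and a luminal marker, had 8.30 in the ablated sample and 8.09 in the control sample, a difference of 0.21 at the 81st percentile. Krt7, a type II keratin of ducts and glands, had 7.17 in the ablated sample and 7.16 in the control sample, a difference of 0.01. All 4 luminal keratins passed the signal filter and lay above the 95th percentile of the receptor genes in both samples. Their median difference was 0.065, against 0.00 over all symbols, and each lay inside the range that held the middle 95% of differences among symbols of like signal (-0.70 to 0.46 for Krt8 and Krt18). Summed on the linear scale, the 4 signals came to 2463 in the ablated sample and 2338 in the control sample.

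The second row of Krt18 gave another value, with 7.67 in the ablated sample and 8.11 in the control sample, a difference of -0.44. Both rows cite the same RefSeq transcript, and they disagree on the size of the difference by more than the whole span of the 4 luminal keratins. With the rows averaged, Krt18 had a difference of -0.23 in place of -0.02. The near-equality of Krt18 between the samples therefore rests on which row is read.

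Basal keratins were dim in both samples. Krt14, the type I chain of the basal pair, had 6.10 in the ablated sample and 6.10 in the control sample. Krt5, its type II partner, had 5.89 in the ablated sample and 6.30 in the control sample, a difference of -0.41. The row of Krt5 is described in the table as keratin 5 and keratin 6A together and shares a public sequence record with the row of Krt6a, so its signal may not be that of Krt5 alone.

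Krt15, a type I keratin of basal and progenitor-like epithelial cells, had 5.62 in the ablated sample and 5.81 in the control sample, a difference of -0.19. Krt17, a type I keratin of basal cells and skin appendages, had 5.25 in the ablated sample and 5.95 in the control sample, a difference of -0.70 (1.62-fold lower). None of the 4 passed the signal filter, and 0 lay above the 95th percentile of the receptor genes, so a level above background is not shown for any of them. Their differences ran from -0.70 to 0.00 with a median of -0.30. Summed on the linear scale, their signals came to 215 in the ablated sample and 265 in the control sample.

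**Figure D1:**
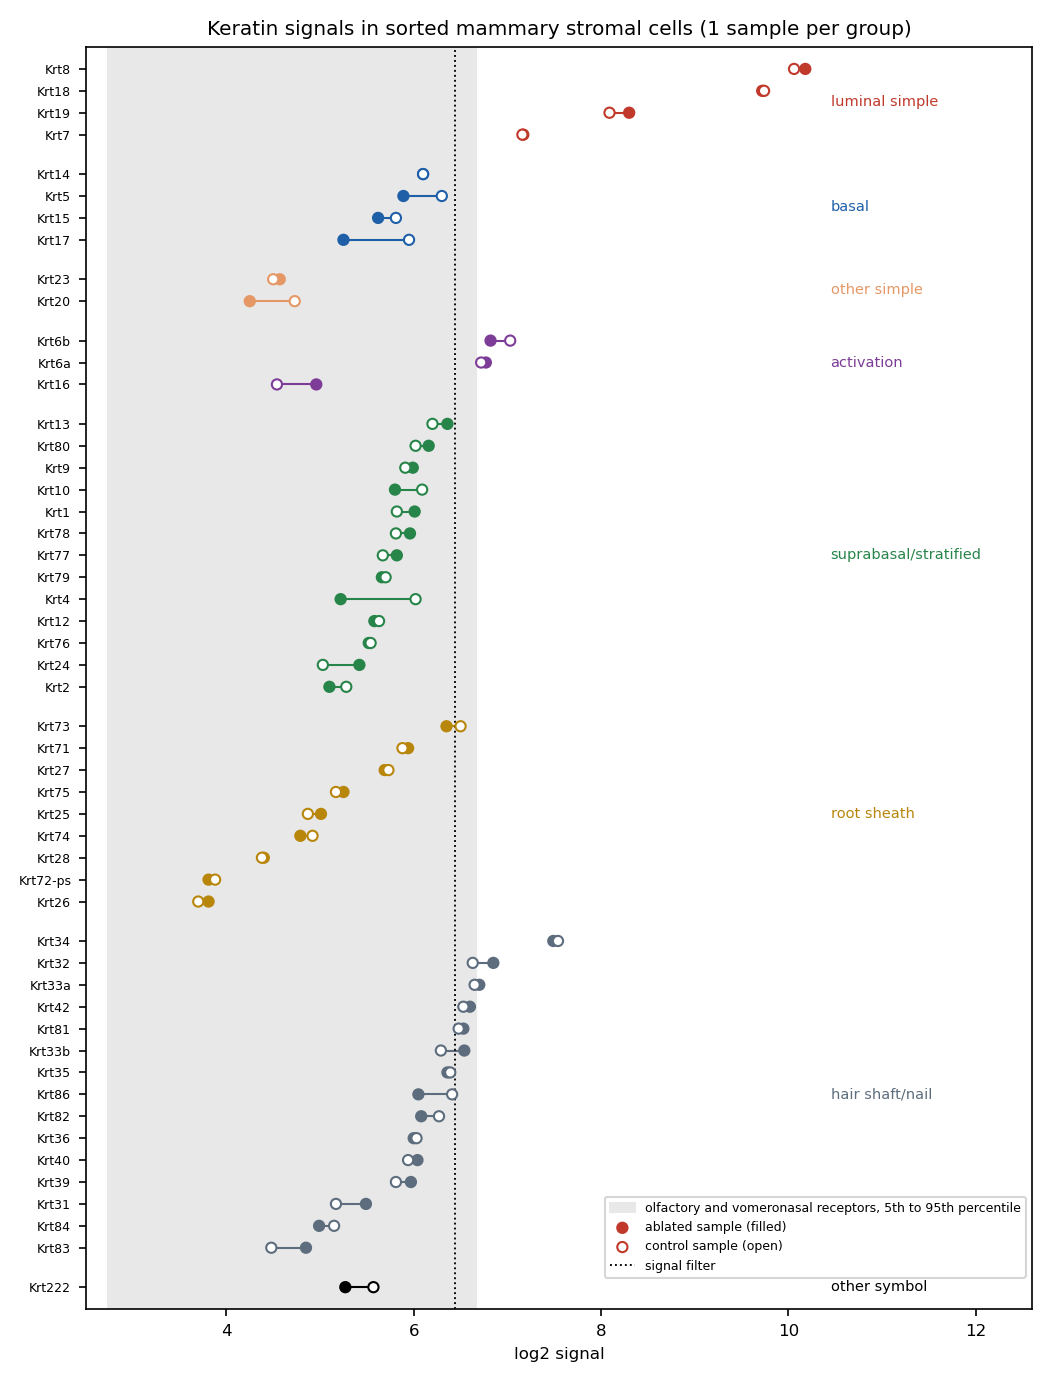
Log2 signal (horizontal axis) of the 51 keratins by class, with filled points for the ablated sample and open points for the control sample, 1 sample each. The shaded band spans the 5th to 95th percentile of 1429 receptor genes (2.74 to 6.66) and the dotted line is the signal filter (6.445). The luminal keratins Krt8, Krt18, Krt19 and Krt7 lie right of the band in both samples, and the 4 basal keratins lie inside it.

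Activation keratins, which keratinocytes switch on after wounding, were split. Krt6b had 6.82 in the ablated sample and 7.03 in the control sample, a difference of -0.21. Krt6a had 6.77 in the ablated sample and 6.72 in the control sample, a difference of 0.05. These near-identical type II copies may share probe signal, and both lay just above the 95th percentile of the receptor genes. Their type I partner Krt16 was dim, with 4.96 in the ablated sample and 4.54 in the control sample, a difference of 0.42, the highest of all keratins.

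The simple keratins known from gut and other glands did not follow the luminal ones. Krt20, of the intestinal lining, had 4.25 in the ablated sample and 4.73 in the control sample. Krt23 had 4.57 in the ablated sample and 4.50 in the control sample. They stood at the 11.3rd and 11.9th percentile of mean signal, close to the median of the receptor genes.

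None of the 13 keratins of suprabasal and stratified epithelium passed the signal filter. Krt1 and Krt10 are the pair of differentiating epidermis. Krt1 had 6.01 in the ablated sample and 5.82 in the control sample, and Krt10 had 5.80 in the ablated sample and 6.09 in the control sample. Both differences lay inside the middle 95% for symbols of like signal. Krt4, a type II keratin of moist stratified epithelium such as the oesophagus, had 5.22 in the ablated sample and 6.02 in the control sample. Its difference of -0.80 (1.74-fold lower) was the lowest of all keratins, while Krt13, its type I partner, had a difference of 0.16 (6.36 in the ablated sample and 6.20 in the control sample).

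Hair keratins made up most of the other members that passed the filter. Of 15 keratins of the hair shaft and nail, 6 passed, a smaller share than the 12323 of all 24646 symbols. The 6 were Krt34, Krt32, Krt33a, Krt33b, Krt42 and Krt81. Krt34, a type I hair keratin, was the brightest of them and came after Krt8, Krt18 and Krt19 among all keratins, with 7.49 in the ablated sample and 7.54 in the control sample. The other 5 had signals from 6.29 to 6.85 over both samples, and each of the 5 was at or below the receptors' 95th percentile in at least 1 sample. Their differences were 0.22 for Krt32, 0.05 for Krt33a, 0.25 for Krt33b, 0.07 for Krt42 and 0.05 for Krt81. Krt33b passed the filter through the ablated sample alone (6.54, against 6.29 in the control sample), where it was higher.

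Of 9 root sheath keratins, Krt73 alone passed the filter. It had 6.35 in the ablated sample and 6.50 in the control sample, so it passed through the control sample alone. The dimmest keratins of the array were Krt26 (3.81 in the ablated sample and 3.70 in the control sample) and Krt72-ps (3.81 in the ablated sample and 3.88 in the control sample). Krt222 had 5.27 in the ablated sample and 5.57 in the control sample, a difference of -0.30. In all, 13 of the 51 keratins passed the signal filter, against 12323 of all 24646 symbols. Of the 51, 7 (13.7%, against 41.8% of all symbols) lay above the receptors' 95th percentile in both samples. The 7 were the 4 luminal keratins, Krt34, Krt6a and Krt6b.

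No keratin was 2-fold apart between the samples, in either direction. Over all symbols, 1.24% were at least 2-fold apart (0.304% higher and 0.933% lower in the ablated sample), so a count of 0 among 51 is near that background and is not a result about keratins. At 1.5-fold, the size that a note in the deposited table marks as a cut line, 0 keratins were higher in the ablated sample, against 1.72% of all symbols. At that size 2 were lower, Krt4 and Krt17, which is 3.92% of the 51 against 3.3% of all symbols. Both were also the 2 keratins that lay outside the middle 95% of differences among symbols of like signal (-0.54 to 0.55), and both lay below the signal filter.

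Across the 51 keratins, 27 had a difference above 0, 23 below 0 and Krt14 at 0, with a median of 0.02. The share below 0 was 45.1%, near the 47.0% of all symbols. The median absolute difference was 0.14, against 0.15 over all symbols. The 27 keratins on chromosome 11 had a median of 0.07 and the 23 on chromosome 15 a median of -0.02. By class, the medians were -0.30 for basal, 0.08 for suprabasal and stratified, 0.05 for hair shaft and nail, 0.05 for activation and 0.02 for root sheath keratins. The sign of the medians of activation and root sheath keratins turned when only members passing the signal filter were kept (-0.08 and -0.15). For root sheath keratins that value is Krt73 alone. Krt73 passed through the control sample alone, where it was higher, so the sign of that value was fixed by the filter.

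**Figure D2:**
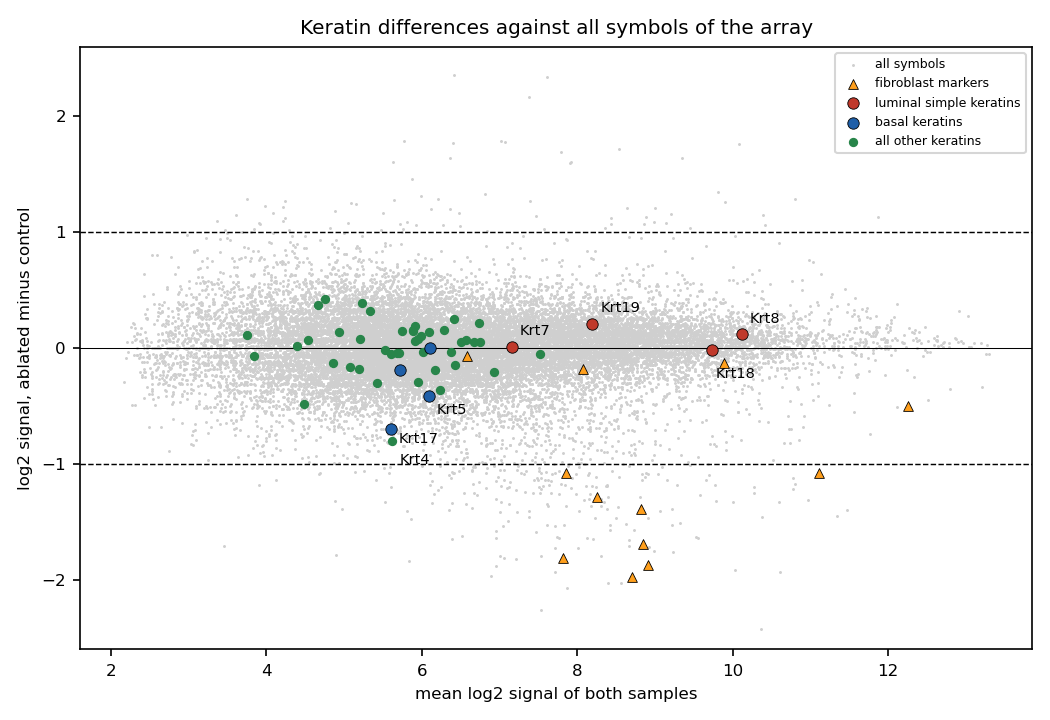
Difference of log2 signal, ablated minus control (vertical axis), against the mean log2 signal of both samples (horizontal axis) for all symbols (grey), keratins (circles) and fibroblast markers (triangles), with dashed lines at 2-fold. All 51 keratins lie between the dashed lines, the luminal ones at high signal near 0. Of 12 fibroblast markers, 8 lie below the lower line, while 0.933% of all symbols were at least 2-fold lower. The vertical axis ends at 2.6 and leaves out 4 symbols.

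Of 27 genes of epithelial identity, 14 (51.9%) lay above the receptors' 95th percentile in both samples, against 41.8% of all symbols. Epcam, an epithelial adhesion molecule, had 9.25 in the ablated sample and 9.52 in the control sample, a difference of -0.27. The epithelial cadherin Cdh1 had 8.78 in the ablated sample and 9.15 in the control sample, a difference of -0.37. Cd24a, which luminal cells and many leukocytes express, had 11.38 in the ablated sample and 11.08 in the control sample. The tight junction gene Cldn3 (-0.45) and the mucin Muc1 (-0.31) had lower signals in the ablated sample as well.

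Over the whole epithelial list, 18 of 27 genes (66.7%) were below 0 and 8 above, with a median of -0.12. Of all symbols, 47.0% were below 0. Trp63, the transcription factor of basal epithelium that drives Krt5 and Krt14, was also below the signal filter, with 5.70 in the ablated sample and 5.55 in the control sample. Among 12 basal and myoepithelial markers the median was -0.295, with 10 below 0 (83.3%, against 47.0% of all symbols). The brightest, the smooth muscle actin Acta2 (7.80 in the ablated sample and 8.26 in the control sample), and the smooth muscle myosin Myh11 (6.75 in the ablated sample and 7.05 in the control sample) are also genes of vessel walls. Igfbp2, an insulin-like growth factor binding protein, had a difference of -0.48.

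The 18 luminal markers other than keratins had a median of 0.165, with 11 above 0 and 7 below (38.9%, against 47.0% of all symbols). The sign of that median turned (-0.32) with the signal filter at the 75th percentile. Their members farthest from 0 were Aldh1a3, an aldehyde dehydrogenase of luminal progenitors (8.31 in the ablated sample and 9.14 in the control sample), and Expi, a whey acidic protein-like gene (7.23 in the ablated sample and 8.06 in the control sample), each with a difference of -0.83. The prolactin receptor Prlr (0.50) and the luminal transcription factor Gata3 (0.42) lay on the other side.

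Desmosome and linker genes, whose products anchor keratin filaments, had 8 of 19 members passing the filter, against 12323 of all 24646 symbols. Their median difference was -0.19, with 57.9% below 0, against 47.0% of all symbols. Desmoplakin, Dsp, which ties keratins to desmosomes, had 7.02 in the ablated sample and 6.80 in the control sample. Plakoglobin, Jup, had 7.50 in the ablated sample and 7.90 in the control sample. The plakophilins Pkp1 and Pkp4 had differences of -0.46 and -0.23. Pkp1 passed the signal filter through the control sample alone (6.79, against 6.33 in the ablated sample), where it was higher. All 5 hemidesmosome genes, which anchor basal keratins to the basement membrane, were below 0, against 47.0% of all symbols. Their differences ran from -0.49 for dystonin, Dst, to -0.03 for the integrin Itga6, with Cd151 at -0.35 and Itgb4 at -0.29.

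Cornified envelope genes, which work with keratins in stratified epithelium, held the epithelial genes that passed 2-fold. Sprr1a, a small proline-rich protein, had 8.09 in the ablated sample and 7.06 in the control sample, a difference of 1.03. Sprr2f had 6.65 in the ablated sample and 5.34 in the control sample, a difference of 1.31. It passed the signal filter (6.445) through the ablated sample alone, where it was higher. Sprr1a and Sprr2f were the 2 of 22 members at least 2-fold higher, against 0.304% of all symbols. Of the 22, 0 were 2-fold lower, against 0.933% of all symbols. Sprr2a1 followed at 0.55 and the transglutaminase Tgm5 at 0.17, and the median of the list was 0.165. Tgm5 too passed the signal filter through the ablated sample alone (6.57, against 6.40 in the control sample). Genes of the Sprr2 group are near-identical copies that may share probe signal.

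Among the other intermediate filaments, vimentin, Vim, the filament of mesenchymal cells and leukocytes, had 12.21 in the ablated sample and 12.46 in the control sample, a difference of -0.25 at the 99.8th percentile of mean signal. The nuclear lamin Lmna had a difference of -0.61 (8.57 in the ablated sample and 9.18 in the control sample), while Lmnb1 had 0.32. The muscle filament desmin, Des (-0.33), and the neurofilament Nefh (0.27) lay near the signal filter. Des passed it through the control sample alone and Nefh through the ablated sample alone, where each was higher. The median of the 16 members was 0.025, and its sign turned (-0.25) when only members passing the signal filter were kept.

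**Figure D3:**
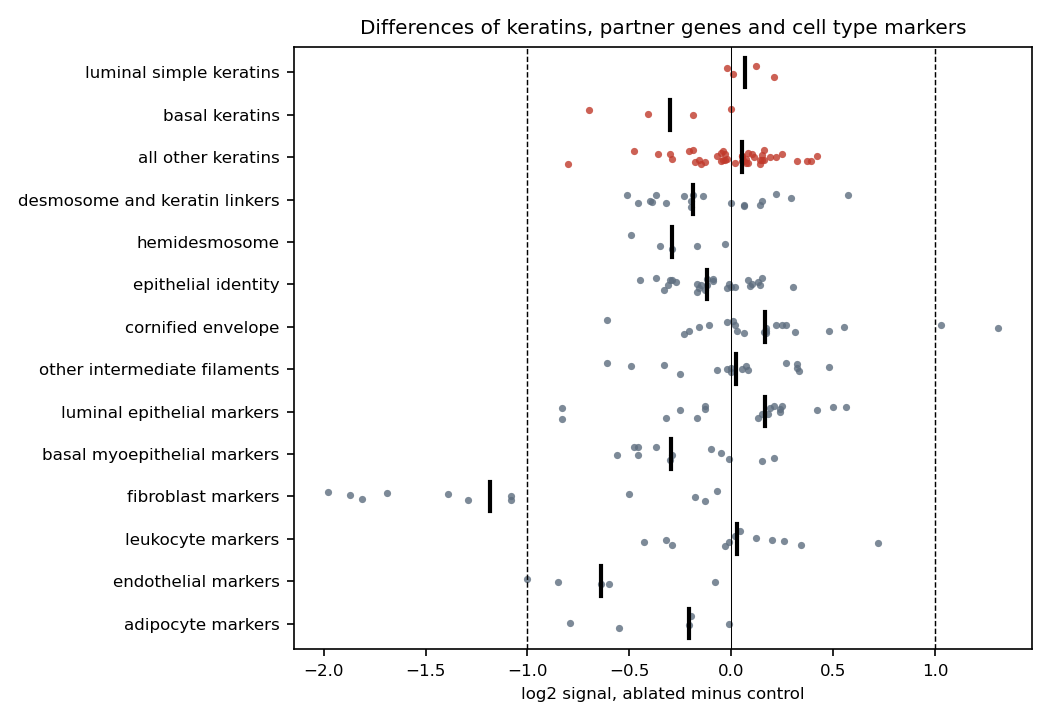
Difference of log2 signal, ablated minus control (horizontal axis), of each gene (points) in the keratin classes (red) and in lists of partner genes and cell type markers (grey), with the median of each list as a black bar and dashed lines at 2-fold. The fibroblast markers have a median of -1.185, while the luminal keratins centre on 0.065 and the basal keratins on -0.30.

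The stromal label of the samples was set against its defining markers. All 12 fibroblast markers passed the signal filter, and each was lower in the ablated sample (median difference -1.185), against 47.0% of all symbols. A 2-fold lower signal was reached by 8 of the 12, against 0.933% of all symbols. Pdgfra, a receptor that marks fibroblasts, had 7.71 in the ablated sample and 9.69 in the control sample, and the collagen gene Col1a1 had 7.97 in the ablated sample and 9.84 in the control sample. Pdgfrb (-1.81) and Col1a2 (-1.69) followed. S100a4, the gene whose promoter drives the Cre, had 7.98 in the ablated sample and 8.16 in the control sample. Summed on the linear scale, the fibroblast markers came to 8363 in the ablated sample and 14953 in the control sample. Such sums, here and for the keratins, add signals of unlike probes and weigh the brightest rows most.

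Leukocyte markers were bright in both samples, with all 12 above the receptors' 95th percentile in each and a median difference of 0.03 (-0.02 under loess scaling). The T cell gene Cd3e had 11.43 in the ablated sample and 11.09 in the control sample, the natural killer receptor Ncr1 had a difference of 0.72, and the macrophage genes Cd68 (-0.43) and Csf1r (-0.32) lay below 0. Endothelial markers had a median of -0.64 over 5 genes, with Cdh5 at -0.85, Kdr at -0.64 and Tek at -0.60. Cldn5 was 2-fold lower (5.73 in the ablated sample and 6.73 in the control sample), against 0.933% of all symbols. Tek and Cldn5 passed the signal filter through the control sample alone, where they were higher. The brightest of the 5, the endothelial adhesion molecule Pecam1, named after its value was seen, had 10.21 in the ablated sample and 10.29 in the control sample. Of 5 adipocyte markers only Fabp4, which endothelial cells and macrophages also express, passed the filter (10.46 in the ablated sample and 11.25 in the control sample). In such bulk samples, fewer cells of a type and less RNA per cell cannot be told apart. The part of these cell types in the keratin values was not tested.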

How the data were processed

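RNA of 2 samples of sorted cells, 1 per group, was labelled as biotinylated cRNA for Affymetrix arrays, per the labels' protocols. The authors deposited log2 signals (bi-weight averages), per the file headers, and beside them a signed linear fold of control over ablated. Per the submitters' processing notes, Transcriptome Analysis Console was used. How background was corrected, how the arrays were normalized and on which build is not given in the sources used. Another deposited table holds log2 signals with more digits, which were the same within 0.006 in all but 2 of 41345 rows. Of these rows, 27036 carry a symbol. For each of 24646 symbols the brighter row by mean signal was kept, and differences were taken as ablated minus control. With 1 sample per group no test was made, and genes were counted at a fixed size of 2-fold. The number of arrays limits the precision. Like signal means the same of 20 bins of mean signal.

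The members and gene lists were chosen with earlier results of these data known. Of 208 list entries, 201 were found by symbol, 4 by a RefSeq synonym (GRCm38.p6) and 3 not. Krt90 stands in the table under another symbol and is not a member. Text names all luminal, basal and activation keratins, other keratins passing the filter or at least 2-fold apart, and per other list up to 4 passing members farthest from 0, plus Vim, Epcam, Cdh1, Trp63, Dsp, S100a4, Pdgfra, Col1a1 and Gli2. A gene that this rule names is not reported here. Krt1, Krt4, Krt10, Krt13, Krt20, Krt23, Krt26, Krt72-ps and Krt222 were added after their values were seen. Alternatives were quantile, loess (span 0.3) and median scaling, averaged rows, the deposited fold, the other table, other filters and folds of 1.5 and 3. The steps were tested on simulated data. Tools were pandas 2.3.3 and numpy 2.4.6 under Python 3.11.15, with statsmodels 0.14.6 for loess and matplotlib 3.10.9 for plots.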

Additional observations from a re-analysis of the deposited data

How the results depend on the processing

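No paired analysis was possible because each group has 1 sample, and no replicate could be left out. A median was taken as moved where it shifted by at least 0.1 on the log2 scale. Of 200 recomputed class, list and count values, 184 stayed within their limits. Part of this was fixed in advance. The median difference over all symbols was 0 before median scaling, so that setting changed nothing. The deposited fold and the other table hold the same measurements. The count of keratins at least 2-fold apart was 0 under every scaling, both value tables, averaged rows and each filter. At 1.5-fold 2 were lower and at 3-fold 0. A filter or a 3-fold cut can only keep a count of 0 at 0, so those settings could not have changed it. With the filter at the 75th percentile (7.87), 3 keratins passed in place of 13. Averaging rows gave luminal keratins a median level of 8.50 in place of 8.96 and the hemidesmosome median to -0.17. Of single keratins, only Krt18 moved, with averaged rows. No other keratin stood on more than 1 row, so averaging could not have changed the others. Keeping members that pass the filter at the median gave medians of -0.08 for activation keratins and -0.15 for root sheath keratins. The latter came from Krt73 alone, which passed through the control sample alone, so its sign was fixed by the filter. The same filter gave 0.36 for the cornified envelope, -0.25 for other intermediate filaments and -0.79 for adipocyte markers, the last from Fabp4 alone. Sprr2f and Tgm5 of the cornified envelope passed through the ablated sample alone. Among other intermediate filaments so did Nefh, while Des passed through the control sample alone. The filter at the 75th percentile gave 0.79 for the cornified envelope, -0.25 for other intermediate filaments and -0.32 for luminal markers. It gave -0.46 for basal markers (Acta2 alone), -1.29 for fibroblast markers, -0.465 for endothelial markers and -0.79 for adipocyte markers (Fabp4 alone). Fewer members were left in each of these lists. No basal keratin passed a filter, so no filtered median exists for them.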

Other observations

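Keratin-associated proteins, which cross-link keratins in the hair shaft, stood on 54 symbols outside the rule. Of these, 9 passed the signal filter, against 12323 of all 24646 symbols, and 0 were 2-fold apart, against 1.24% of all symbols. Their median difference was 0.00, with a range from -0.84 to 0.83.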
